A study of Caenorhabditis elegans with 2 samples.

Results

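The 10 genes described here encode enzymes of glycolysis, from the aldolase step onward, in the nematode Caenorhabditis elegans: the aldolases aldo-1 and aldo-2, the triose phosphate isomerase tpi-1, the glyceraldehyde 3-phosphate dehydrogenases gpd-1, gpd-2, gpd-3 and gpd-4, the phosphoglycerate kinase pgk-1, the enolase enol-1 and the pyruvate kinase pyk-1. They were listed by name, not by a measured value, out of 19973 protein-coding genes on the nuclear chromosomes of the Ensembl WBcel235 annotation. Chromatin immunoprecipitation followed by sequencing (ChIP-seq) located a tagged FKH-10, a forkhead transcription factor, in whole fourth-stage (L4) larvae, a mixed-sex population. Both biological replicates, the only group, came from strain OP337, in which unc119(ed3) animals carry the integrated transgene wgIs377, which holds unc119 and an fkh-10 fusion to the tags TY1, EGFP and FLAG. The signal is summed over all tissues, so the cells that gave it cannot be told apart.

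Glycolysis turns glucose into pyruvate in the cytosol. Aldolase cleaves the phosphorylated hexose, triose phosphate isomerase interconverts the products, and the dehydrogenase, kinase, enolase and pyruvate kinase steps then yield NADH, ATP and pyruvate. These enzymes are abundant in most animal cells, muscle above all. The 4 dehydrogenase genes are close copies of each other, and gpd-2 and gpd-3 are transcribed after mai-1, a gene for an ATPase inhibitor, from a shared operon.

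The authors deposited 4 lists of regions on build ce11: 2253 regions past their irreproducible discovery rate threshold over both replicates (IDR regions), 19381 relaxed regions of the pooled replicates, and 30000 and 28886 relaxed regions of replicates 1 and 2, background included. Each region has a signal, the authors' enrichment over a control library on a scale that is not given in the sources used here, and a summit. Signals ran from 6.41 to 145 in replicate 1, from 5.62 to 163 in replicate 2 and from 41.5 to 304 in the IDR list. Depth in reads is unknown, and no region was listed identically in the replicates (0 with equal position and signal). The median region length was 384 bp in replicate 1 and 400 bp in replicate 2. Regions of unlike length cannot have equal positions, so this 0 says nothing about the replicates. The gene fkh-10 itself had 0 regions within 20 kb in all 4 lists, the nearest summit lying between 20.6 and 32.1 kb away, so no region marked the transgene that the labels name. A control library with the same transgene would cancel its extra copies, so this absence does not test the label. A region was assigned to a gene when its summit lay between 1000 bp upstream of a transcript start and the gene end.

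Of the 10 genes, 2 had an IDR region in this window, aldo-1 and pyk-1 (95% Wilson interval of the share, 5.67 to 51.0%). Over all 19973 genes the share was 8.56%, and over the genes with any region of the 4 lists in the window it was 11.4%, against 2 of 9 here. Neither region was strong: the signals of 53.0 at aldo-1 and 57.2 at pyk-1 ranked 1461 and 1237 of 2253 and lay below the median IDR signal of 59.2. With the stronger part of the list alone, the top 1126 regions, the count was 0 of 10, against 4.53% of all genes. The window of pyk-1 was long, 10057 bp, while the other 9 measured 2221 to 3803 bp. Among genes with windows of 9000 to 11000 bp 21.8% had an IDR region, and among those with windows of 2200 to 4000 bp 5.32%, beside 1 of 9 here. With so few genes, the count of 2 lies near the background.

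In the relaxed lists, pooled regions lay at 7 of the 10 genes (45.0% of all genes), replicate 1 regions at 7 (61.6%) and replicate 2 regions at 6 (55.1%). Both replicates had a region at 4 genes, aldo-1, pgk-1, enol-1 and pyk-1, against 41.9% of all genes. When the summits of both replicates also had to lie within 100 bp of each other, 1 gene was left, pyk-1, against 20.3% of all genes. At aldo-1, pgk-1 and enol-1 the replicates placed them at separate positions. The count of 4 depends on the window: with 2000 bp upstream, 9 of the 10 genes, all but tpi-1, had a region in both replicates, against 51.1% of all genes. At aldo-2, gpd-2, gpd-3 and gpd-4, each with a region in 1 replicate before, the regions added from the other replicate lay nearest another gene's start.

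**Figure D1:**
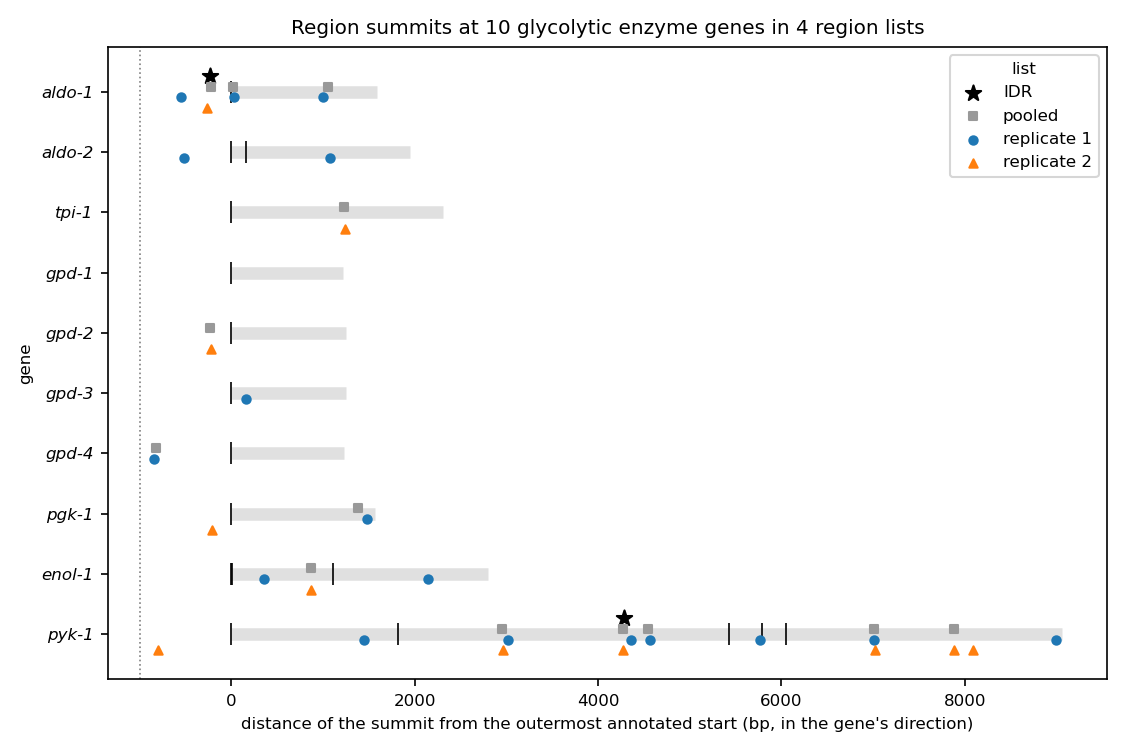
Summits of the regions at the 10 genes, by distance from the outermost annotated start (bp), with grey bars for the genes, black ticks for annotated starts, a dotted line at 1000 bp upstream, and 1 symbol per list. Stars mark the IDR regions at aldo-1 and pyk-1; gpd-1 has no symbol in any list.

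The strongest region at each gene was read in each replicate. In replicate 1 it reached 20.1 at aldo-1, 16.8 at pyk-1, 15.0 at pgk-1 and 12.1 at aldo-2, while enol-1, gpd-3 and gpd-4 had 9.73, 8.20 and 6.63. In replicate 2 it reached 40.1 at aldo-1, 36.3 at pyk-1, 25.6 at gpd-2 and 22.2 at enol-1, with 9.19 at tpi-1 and 6.15 at pgk-1. aldo-1 and pyk-1 therefore led in both replicates, while gpd-2 had no region in replicate 1 and aldo-2 none in replicate 2. The aldo-1 values came from separate summits, 31 bp downstream of the start in replicate 1 and 265 bp upstream in replicate 2. The pyk-1 values were the highest over a window of 10057 bp, against 2221 to 3803 bp for the other genes. The median over the 7 genes with a replicate 1 region was 12.1, against 10.4 over the 12311 genes with one. Over the 6 genes with a replicate 2 region it was 23.9, against 10.03 over 11002 genes. These medians leave out the genes without a region.

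**Figure D2:**
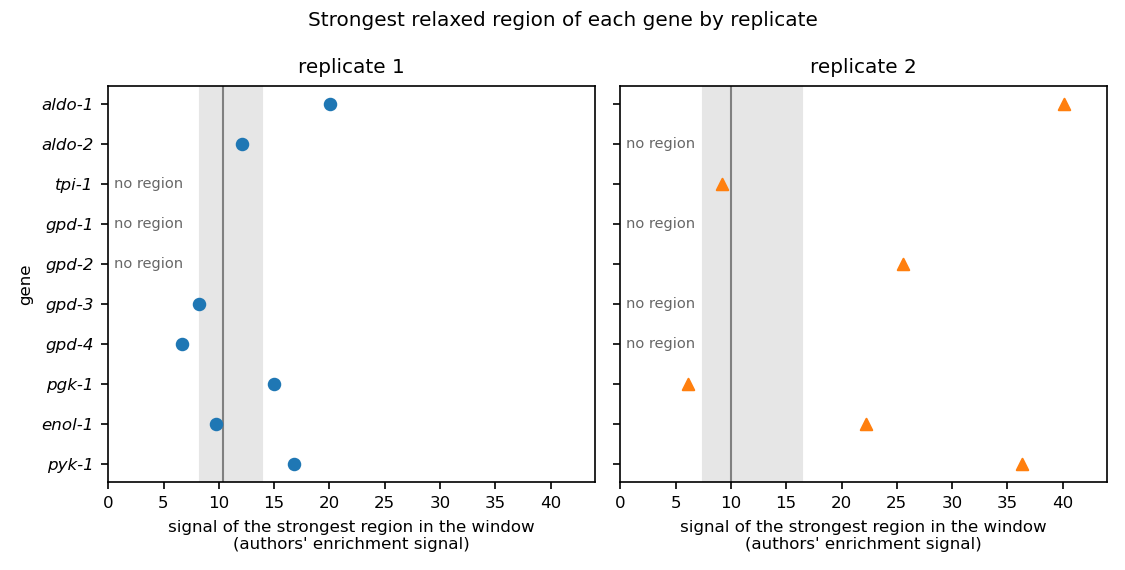
Signal of the strongest relaxed region in the window of each gene in replicate 1 (circles) and replicate 2 (triangles); the line and the grey band give the median and the middle 50% of all genes with a region in that replicate. In replicate 2 aldo-1, pyk-1, gpd-2 and enol-1 lie above the band, and in replicate 1 aldo-1, pyk-1 and pgk-1 do.

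aldo-1 (WBGene00011474, chromosome III, 13563346 to 13564937, minus strand) encodes an aldolase, which splits fructose 1,6-bisphosphate. Its IDR region (chrIII:13564974-13565363) had its summit 232 bp upstream of the start, and no other protein-coding promoter window (1000 bp upstream to 200 bp downstream of a start) held that summit. This was the only IDR region in a promoter window of the 10 genes, beside 6.98% of all genes. Replicate 2 had a summit 33 bp away, with a signal of 40.1 and rank 762 of 28886. Replicate 1 had none within 100 bp: its nearest summits lay 31 bp downstream of the start, with a signal of 20.1 and rank 2004 of 30000, and 544 bp upstream, with a signal of 9.81. The replicates thus bracketed the start of aldo-1 without sharing a summit there. The pooled list had both, with 40.6 at 226 bp upstream and 22.01 at 16 bp downstream. A further replicate 1 region, with a signal of 14.9, lay 998 bp into the gene, in a coding exon that also falls in the promoter window of T05D4.2.

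The 2 stretches below are shown because they hold the strongest summit at aldo-1 and at enol-1 in these lists; both are free of annotated exons and read 5′ to 3′ on the strand of the gene, from the WBcel235 reference. The first 11 capitals mark the summit and its 5 neighbours on each side. In aldo-1 the later run of 7 capitals is a GAGAGAG match on the other strand, 95 to 101 bp past the summit and so reaching past the 100 bp searched. The pooled summit, 226 bp upstream of the start, has the same match within its 100 bp. At this match the 2 lists thus differ only at the edge of the search.

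aldo-1, chrIII:13565020-13565318, minus strand, 381 to 83 bp upstream of the start: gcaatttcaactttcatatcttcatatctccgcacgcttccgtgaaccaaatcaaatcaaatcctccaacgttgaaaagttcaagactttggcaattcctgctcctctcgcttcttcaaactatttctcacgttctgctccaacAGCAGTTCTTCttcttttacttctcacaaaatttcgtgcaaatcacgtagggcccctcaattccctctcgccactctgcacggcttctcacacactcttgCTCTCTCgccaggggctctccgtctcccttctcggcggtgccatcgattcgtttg
enol-1, chrII:8931770-8931970, plus strand, 336 to 136 bp upstream of the third start: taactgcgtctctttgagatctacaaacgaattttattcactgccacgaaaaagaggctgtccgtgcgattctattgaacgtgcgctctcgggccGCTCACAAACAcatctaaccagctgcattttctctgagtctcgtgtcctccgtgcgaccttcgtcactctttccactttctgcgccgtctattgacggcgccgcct

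Short motifs were sought on both strands within 100 bp of the summit. At neither IDR region of the 10 genes was there a match to GAGAGAG or TGATAA or TAATTA or CCCGCCC or CACGTG or the forkhead forms GTAAACA or ATAAACA or GTAAATA or ATAAATA. Any of those 4 forkhead forms was at 13.98% of all IDR summits and 18.4% of the pooled ones, GTAAACA alone at 3.60% and 2.80%, GAGAGAG at 20.1% and 7.30%, TGATAA at 7.19% and 13.98%, TAATTA at 3.55% and 8.74%, CCCGCCC at 2.35% and 1.42% and CACGTG at 3.82% and 3.35%. Of the 13 pooled summits at the 10 genes, 4 had GAGAGAG (2 at aldo-1, 1 at gpd-2 and 1 at pgk-1) and 3 had any of the 4 forkhead forms (1 at pgk-1 and 2 at pyk-1). Within 50 bp of the summit these counts were 1 and 1, and within 150 bp 4 and 5. Forms with C as the second base, such as the ACAAACA at the enol-1 summit printed above, were not sought. The GC content of the 201 bases around the summit was 44.8% at aldo-1 and 51.7% at pyk-1, against 42.8% ± 7.08 (SD, 2253 IDR regions).

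aldo-2 (WBGene00017166, chromosome III, 5874673 to 5876625, minus strand), the other aldolase gene, had no IDR, pooled or replicate 2 region. Replicate 1 had 2 there, with a signal of 12.1 at 515 bp upstream and 11.3 in a coding exon. The nearest IDR summit lay 28.1 kb from the gene. tpi-1 (WBGene00006601, chromosome II, 12036835 to 12039139, minus strand), for triose phosphate isomerase, had 1 weak region in an intron, in the pooled list (signal 14.2) and in replicate 2 (9.19), and none in replicate 1.

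The glyceraldehyde 3-phosphate dehydrogenase genes, whose enzyme makes NADH, had regions inside and just outside their windows. Replicate 1 had one inside at 2 of the 4 genes and replicate 2 at 1, while of all genes with windows of 2200 to 4000 bp 56.5% had one in replicate 1 and 48.5% in replicate 2. gpd-1 (WBGene00001683, chromosome II, 10394129 to 10395349, plus strand) had 0 in all 4 lists. gpd-4 (WBGene00001686, chromosome II, 10171268 to 10172498, plus strand) had 1 in the pooled list, with a signal of 15.0 at 827 bp upstream, and 1 in replicate 1, with 6.63. gpd-2 (WBGene00001684, chromosome X, 3113443 to 3114689, minus strand) had a summit in the pooled list (signal 27.3, 237 bp upstream) and in replicate 2 (25.6, rank 2020, 225 bp upstream), but none in replicate 1, whose nearest summit was 1292 bp away and whose list ends at a signal of 6.41. gpd-3 (WBGene00001685, chromosome X, 3112091 to 3113341, minus strand) had only a replicate 1 region in a coding exon, with a signal of 8.20 and rank 18948. Among the 4 genes the upstream region of gpd-2 was therefore the strongest, and 1 replicate alone showed it.

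The gpd-2 summit lies within mai-1 (WBGene00003124, chromosome X, 3114668 to 3116589, minus strand), and an IDR region lay at the start of that gene, the head of the operon. Its summit was 378 bp downstream of the outermost start of mai-1 and 1522 bp upstream of gpd-2, in an exon outside the coding part, with a signal of 55.8 and rank 1317. Both replicates had it, with signals of 22.6 in replicate 1 (rank 1578) and 32.0 in replicate 2 (rank 1327) and summits 93 bp apart. On the other side of the pair, 755 bp past the end of gpd-3, lay a stronger IDR region, with a signal of 80.4 and rank 486. There the signals were 40.7 in replicate 1 (rank 321) and 34.1 in replicate 2 (rank 1149). That summit is in the promoter window of gpcp-1, 708 bp upstream of its start. One IDR region thus lay at the head of the operon and the other past its end, both outside the windows of gpd-2 and gpd-3.

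**Figure D3:**
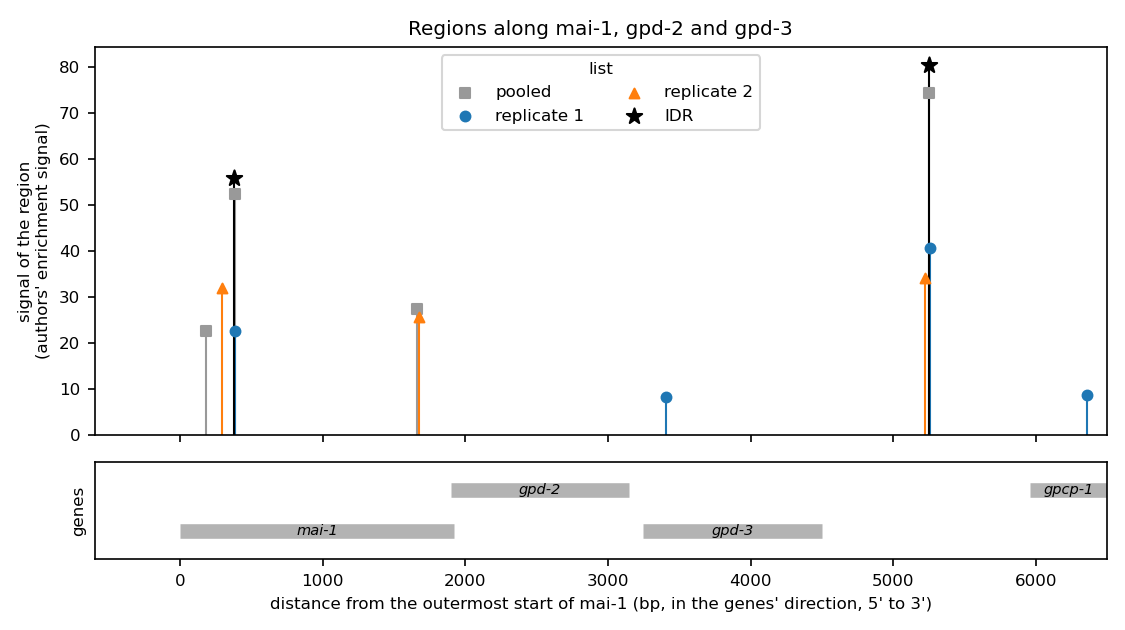
Signal of each region along mai-1, gpd-2, gpd-3 and the start of gpcp-1, by distance from the outermost start of mai-1 (bp); the bars below give the genes. The IDR regions, with signals of 55.8 and 80.4, lie in mai-1 and between gpd-3 and gpcp-1, and the gpd-2 and gpd-3 bodies hold 1 replicate 1 region of 8.20.

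Regions also lay past the ends of gpd-1 and gpd-4, where a further gene starts close by. These stretches, up to 1000 bp past the gene end, were looked at after the values were seen. Past gpd-1 the replicates had 14.1 and 18.5, at 40 and 194 bp upstream of T09F3.4. Past gpd-4 they had 7.16 and 24.2, at 247 and 248 bp upstream of wbp-11. Further on, within wbp-11, replicate 1 had 12.4 at 832 bp past the end of gpd-4 and replicate 2 had 8.93 at 967 bp. Upstream of gpd-4, a region 1683 bp from its start and 239 bp from that of the divergent gene daf-19, an RFX factor of ciliated neurons, had signals of 12.1 and 21.4. None of these was an IDR region. Over all 10 genes, 1 had an IDR summit past its end (1.99% of all genes), 3 a pooled one (17.3%), 6 a replicate 1 one (26.0%) and 5 a replicate 2 one (25.2%).

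The copies bear on where a read can be placed. The coding sequences of gpd-1 and gpd-4, 1023 bases each, were 99.0% identical, with 10 mismatches, and those of gpd-2 and gpd-3 97.4%, with 27. Between the pairs the identity was 79.3 to 79.9%. The first 60 coding bases of each gene are shown to make this visible, with capitals where a base differs from gpd-1.

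gpd-1, chrII:10394137-10394196, plus strand: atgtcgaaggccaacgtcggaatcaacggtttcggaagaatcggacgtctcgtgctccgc
gpd-4, chrII:10171280-10171339, plus strand: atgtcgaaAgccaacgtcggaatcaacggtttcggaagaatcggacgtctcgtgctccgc
gpd-2, chrX:3114628-3114687, minus strand: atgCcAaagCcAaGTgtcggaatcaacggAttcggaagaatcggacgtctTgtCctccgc
gpd-3, chrX:3113262-3113321, minus strand: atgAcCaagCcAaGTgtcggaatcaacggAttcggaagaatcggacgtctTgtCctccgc

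In these 60 bases gpd-4 differed from gpd-1 at 1 position, gpd-2 and gpd-3 each at 9, and gpd-2 from gpd-3 at 2. Of all 50-base words in the gene, 42.0% occurred in a single place in the genome at gpd-1 and 42.5% at gpd-4, 73.1% at gpd-2 and 73.2% at gpd-3. For the other 6 genes the share was 97.0 to 100%. In the 1000 bp upstream the words of gpd-1 and gpd-2 were 100% single-copy and those of gpd-4 98.8%, while for gpd-3, whose upstream bases lie mostly in gpd-2, it was 73.4%. Around the 2 IDR summits of the 10 genes it was 100%. How the authors placed reads that match several positions is not given in the sources used here, and its part in the values at the gpd genes was not tested.

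**Figure D4:**
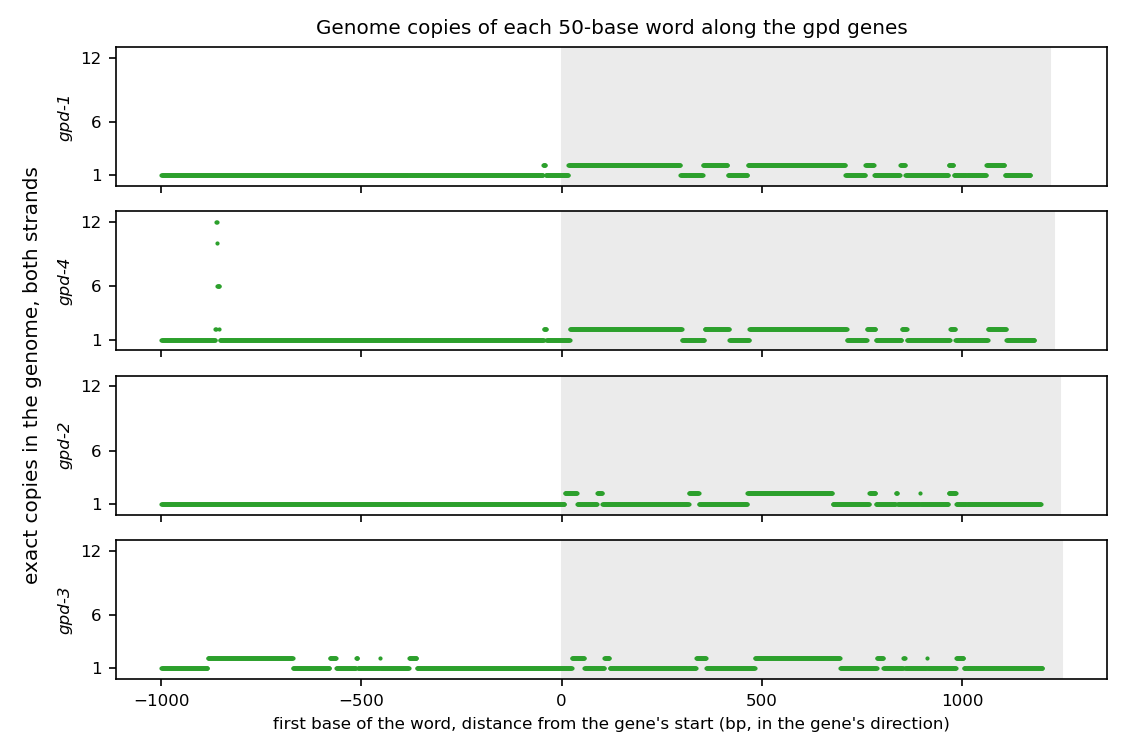
Number of exact copies in the genome, on both strands, of each 50-base word along gpd-1, gpd-4, gpd-2 and gpd-3, by distance of its first base from the gene's start (bp); grey marks the gene. Words with 2 copies cover most of gpd-1 and gpd-4, and words that lie wholly upstream of gpd-1 and gpd-2 have 1 copy.

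pgk-1 (WBGene00020185, chromosome I, 3867541 to 3869109, plus strand) encodes phosphoglycerate kinase, which makes ATP. Its pooled region, with a signal of 20.9, lay in a coding exon 1385 bp into the gene, and replicate 1 had a summit 90 bp further on, with a signal of 15.0 and rank 3846. Both fall in the promoter window of coq-4, a gene of ubiquinone synthesis, 288 and 198 bp upstream of its start. The replicate 2 region lay 214 bp upstream of pgk-1, with a signal of 6.15 and rank 25400, near the end of the list. The stronger regions at pgk-1 were thus at its far end, and the replicates did not share a position.

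enol-1 (WBGene00011884, chromosome II, 8930997 to 8933799, plus strand), for enolase, has 3 annotated starts. The strongest summit, in the pooled list (signal 25.4, rank 4439) and in replicate 2 (22.2, rank 2522), was at the same base, in an intron 236 bp upstream of the third start. The stretch printed above is centred on it. Replicate 1 had no summit within 518 bp of it, and its 2 regions had signals of 9.73 at 349 bp downstream of a start and 6.75 in a coding exon. The region at the inner start of enol-1, like the upstream one of gpd-2, was thus seen in replicate 2 but not in replicate 1.

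pyk-1 (WBGene00009126, chromosome I, 9168432 to 9177488, plus strand) encodes pyruvate kinase, the last step, and has 5 annotated starts. It had 5 pooled, 7 replicate 1 and 6 replicate 2 regions, or 0.696 and 0.597 per kb in the replicates, against 0.299 and 0.288 per kb over the genome. The genome figure also covers bases outside gene windows. The window of aldo-1 had 1.157 and 0.386 per kb, so a density above that of the genome was not particular to pyk-1. The IDR region (chrI:9172515-9172904) had its summit in an intron, 1149 bp upstream of the third start and so outside the promoter window by less than 150 bp. Replicate 1 had 16.8 there (rank 2890) and replicate 2 had 36.3 (rank 1014), with summits 88 bp apart. On the log2 scale replicate 2 was higher by 1.11. Over the 2013 IDR regions with a summit of each replicate within 100 bp, the median of this log2 ratio was 0.40 with an SD of 0.72, so the pyk-1 region lay within 1 SD of the median.

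At 2 other sites of pyk-1 both replicates had a summit. In an intron 1194 bp downstream of the second start, replicate 1 had 13.7 and replicate 2 12.1, a log2 ratio of -0.18. In a coding exon 963 bp past the last start, they had 6.83 and 7.55, a log2 ratio of 0.14. The log2 ratios, not centred on the median of 0.40, were thus smaller in size at these weaker sites than at the IDR region. The exon signals, ranked 26930 and 18086, were not far above the lowest of each list, 6.41 and 5.62, which limits how far a listed pair can differ. A gene with a window of this length had such a shared site in 48.1% of cases, and one with a window of 2200 to 4000 bp in 14.0%. At the outermost start of pyk-1 itself there was a replicate 2 region alone, 795 bp upstream, with a signal of 7.58. The regions of pyk-1 in 1 replicate only ranged from 7.61 to 10.1 in replicate 1 (4 regions) and from 6.75 to 11.2 in replicate 2 (3 regions).

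**Figure D5:**
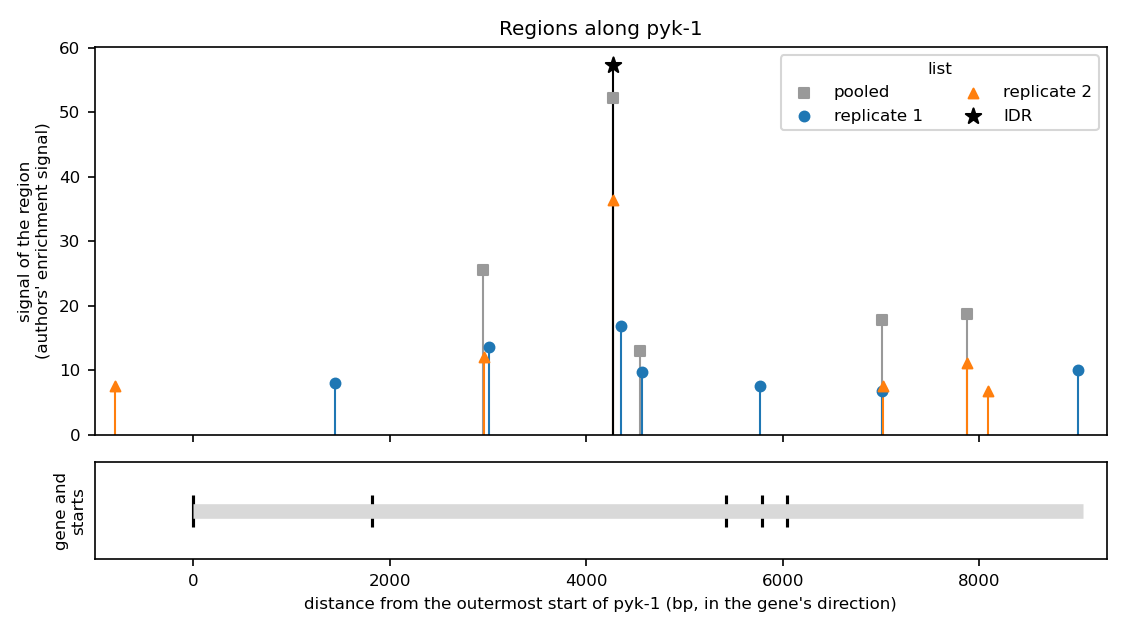
Signal of each region along pyk-1 by distance from its outermost start (bp); the bar below gives the gene and the ticks its 5 annotated starts. The IDR region, with a signal of 57.2, stands between the second and the third start, with the pooled and replicate 2 regions of 52.2 and 36.3 beside it; at the other sites the signals are at or below 25.6.

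Other enzymes of glycolysis and of the steps beside it were counted in the same way. Of 21 such genes, 2 had an IDR region in the window, hxk-2 and hxk-3, for hexokinases, which carry out the first step (9.52%, 95% Wilson interval 2.65 to 28.9, against 8.56% of all genes). At hxk-2 the summit lay 256 bp upstream, with a signal of 47.6 and rank 1763, and also in the promoter window of cdk-9, a kinase of transcription elongation. The replicates had 21.7 and 22.4 there, with summits 9 bp apart. At hxk-3 it lay 135 bp downstream of the outermost start (chromosome IV), with a signal of 51.1 and rank 1567, and the replicates had 24.5 and 18.0. Both hexokinase sites were thus shared by the replicates within 12 bp; at the 3 shared sites of pyk-1 the summits were 11 to 88 bp apart. Window length was not matched for the 21 genes, of which hxk-2 (11311524 to 11323110) and hxk-3 (1497626 to 1510027) are the longest. As given above, an IDR region was at 21.8% of genes with windows of 9000 to 11000 bp and at 5.32% with 2200 to 4000 bp. For a site shared within 100 bp these shares were 48.1% and 14.0%. A site in both replicates within 100 bp was found at 7 of the 21, against 20.3% of all genes. Besides hxk-2 and hxk-3 these were hxk-1, ldh-1, for lactate dehydrogenase, pck-1, for a gluconeogenic carboxykinase, pdhb-1, for a pyruvate dehydrogenase subunit, and gpdh-2. The phosphofructokinase genes pfk-1.1 and pfk-1.2 had no pooled or IDR region, and pfk-1.2 had none in any list.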

How the data were processed

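ChIP-seq of 2 biological replicates of 1 group was used as region lists on build ce11; fragments were of 150 to 350 bp per the labels. The deposited lists give a signal per region, made by the authors from the reads against a control library, and a −log10 q-value, per the narrowPeak column order. That −log10 value was not used for ranking, since 76.1% of the deposited IDR regions share its highest value. The sources used here name no aligner, caller or threshold. The lists on ce10 were not used. No region ran past a chromosome end of WBcel235, the assembly behind ce11; positions count from 1. Depth is unknown; Wilson intervals cover counting error only.

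Summits were assigned to windows as given above, ranks taken by signal within a list, and summits within 100 bp counted as 1 site. Words of 50 bases were counted in the genome on both strands. Coding sequences were aligned globally with Biopython 1.88 (Python 3.11.15, numpy 2.4.6, pandas 2.3.3, scipy 1.17.1). The gene window search was tested on simulated data. The genes, lists, motifs and tests were chosen with earlier results of these data known, so counts are given beside those of all genes with no test. The genes planned to be named were the 10, the pathway genes with an IDR region, and mai-1. Other genes whose promoter window holds the summit of an IDR region at the 10 were also planned, and there were none. T05D4.2, coq-4, cdk-9, ipgm-1, ldh-1, pck-1, pdhb-1, hxk-1, gpdh-2 and the phosphofructokinases were named after their values were seen. So were the genes next to gpd-1, gpd-3 and gpd-4. Alternatives changed the window, threshold, placing, matching distance, word length and replicates.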

Additional observations from a re-analysis of the deposited data

How the results depend on the processing

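The count of 2 of 10 genes with an IDR region held with 500 bp upstream (7.3% of all genes) and with any base of the region in the window (9.51%). It also held with the nearest start only. It was 3 with 2000 bp upstream (10.6% of all genes), which takes in the mai-1 region for gpd-2. It was also 3 with the window extended to 1000 bp past the gene end, a choice made after seeing the data, which adds gpd-3. With the 1126 strongest IDR regions it was 0 (4.53% of all genes). The 2253 strongest relaxed regions of 1 replicate were also put in place of the IDR list. With those of replicate 1 the count was 1 (aldo-1), against 8.12% of all genes. With those of replicate 2 it was 3 (aldo-1, gpd-2 and pyk-1), against 8.47%. For the 21 pathway genes the count of 2 became 4 with 2000 bp upstream (10.6% of all genes) and 0 with the 1126 strongest (4.53%). With the nearest start only it was 1 (hxk-3). The 2253 strongest regions of replicate 2 gave 1 gene, ipgm-1, and those of replicate 1 gave 3, hxk-2, hxk-3 and ldh-1. In replicate 2 the hexokinase regions ranked 2488 (hxk-2) and 3456 (hxk-3), below that cut. Genes with a region in both replicates numbered 4 (41.9% of all genes), 6 with any base in the window (45.9%), and 9 of 10 with 2000 bp upstream (51.1%). With 2000 bp, aldo-2, gpd-2, gpd-3 and gpd-4 came in through regions nearest another gene's start. IDR regions in a promoter window numbered 1, and 2 with 2000 bp upstream to 500 bp downstream. The log2 ratio of 1.11 was the same with summits matched within 250 bp and had no value within 50 bp. Words of 36 bases left the IDR summits at 100%. Motif matches at the 2 IDR summits were 0, and 1 (GAGAGAG at aldo-1) with 150 bp to each side; at the 13 pooled summits GAGAGAG matched at 4, and at 1 with 50 bp, and the forkhead forms at 3, 1 with 50 bp and 5 with 150 bp. No paired analysis was possible because there is 1 group. The unknown depth and the 10 genes limit every count.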

Other observations

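Within 2000 bp upstream, gpd-1 had regions in both replicates that its 1000 bp window missed by a short distance: at 1194 bp in replicate 1, with a signal of 8.10, and 1078 bp in replicate 2, with 6.64. gpd-4 had one in replicate 2 at 1003 bp, just outside the window, with 10.8 (rank 8714), 155 bp from its replicate 1 summit. tpi-1 had one 1227 bp upstream in replicate 2, with 13.9, and none in replicate 1. Upstream of aldo-1, replicate 2 had further regions at 1273 and 1889 bp, with 12.6 and 8.22. These relaxed regions ranked between 5312 and 22504 in their lists.

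Among the 21 pathway genes, ipgm-1, the phosphoglycerate mutase gene, had a strongest signal of 10.4 in replicate 1 and 30.2 in replicate 2 (rank 1516), while ldh-1 had 26.4 (rank 1133) and 12.9. Both genes were chosen for their values. ipgm-1 had a region among the 2253 strongest of replicate 2 only, ldh-1 among those of replicate 1 only, and neither had an IDR region. The strongest regions of the replicates were at separate sites. At the ldh-1 site with 26.4, replicate 2 had 9.455 (rank 11616), and ipgm-1 had no summits of both replicates within 100 bp.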
